A study of Mus musculus with 35 samples.

Results

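Mouse NMuMG cells, a line of normal mammary epithelium, kept for 7 d with a blocker of the c-Jun N-terminal kinase JNK (labelled JNKi) were compared with cells kept for 7 d with the vehicle DMSO. Each group had 2 libraries of total RNA, so 4 of the 35 samples of the series are compared. The genes described were the 13755, of 20261 in the deposited table, with a mean of at least 10 normalized reads in either group at 7 d. Both groups carry the labels genotype WT and strain E9, and the labels do not say whether E9 is a clone. The protocol text shared by all samples gives TGF-β at 2 ng/ml, renewed with the medium, for time course experiments, and no label of a single sample says whether it received TGF-β. The inhibitor is not named in the labels, and neither its dose nor the time of its addition is given. The study asked how JNK signalling shapes the gene program of the epithelial-mesenchymal transition (EMT). Besides the 7 d groups, the inhibitor experiment held JNKi and DMSO cells at 24, 48, 72 and 96 h, again with 2 libraries per group, and these are used to show where 7 d differed.

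JNK is a stress-activated kinase that phosphorylates Jun, a subunit of the AP-1 transcription factors, and the related factor Atf2. AP-1 dimers bind a short palindrome in promoters and enhancers of cytokine, protease and matrix genes. In mammary epithelial cells exposed to TGF-β, JNK and Smad signals meet on many of the same genes, and the cells lose junctions and gain actin stress fibres and matrix. The results below put the emphasis on genes and functions other than the usual EMT markers.

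Whether the 2 replicates of a group were separate cultures is not stated. The p-values therefore reflect the spread among these libraries alone, and that spread may be technical. In bulk RNA, fewer cells of a type and less RNA per cell cannot be told apart. Depth was 9492324 and 36600476 reads in JNKi replicates 1 and 2, against 16652275 and 40932058 reads in DMSO replicates 1 and 2. A normalized value of 1 read was 2.77 and 0.70 in JNKi replicates 1 and 2, and 1.68 and 0.68 in DMSO replicates 1 and 2, so low values are coarsest in JNKi replicate 1. That library stood apart for a few structural and repeat-like RNAs. Rmrp, the RNA of the RNase MRP complex, had 2104.5 and 34.3 normalized reads with JNKi, against 5 and 8.1 with DMSO. Its log2 difference of 5.21 was past the test, but it was no longer called without JNKi replicate 1 (2.26, limma adjusted p = 0.3), DMSO replicate 1 (4.90, limma adjusted p = 0.144) or DMSO replicate 2 (5.51, limma adjusted p = 0.051), and the 2 JNKi values differ widely. Lars2, a mitochondrial leucyl-tRNA synthetase gene, had 419429 and 43534 with JNKi, against 61648 and 47036 with DMSO, and did not pass the test (1.33, limma adjusted p = 0.215). Other RNAs were higher in both JNKi libraries than in both DMSO libraries, in reads scaled to library depth (RPM). Malat1 had 1370 and 921 RPM with JNKi, against 647 and 600 with DMSO. Terc had 1.58 and 1.26 RPM with JNKi, against 0.36 and 0.513 with DMSO. The microRNA genes summed to 36.8 and 35 RPM with JNKi, against 26.4 and 26.2 with DMSO. The part of such a difference in RNA composition in the calls was not tested. The identity of the cells was as labelled in part. The luminal keratin genes Krt8 and Krt18 and the basal genes Krt14 and Krt5 were present, Csn2 and Elf5 were near 0, and Epcam was low in both groups (11.1 and 12.6 with JNKi, against 11.8 and 8.1 with DMSO).

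The comparison was tested with limma on log2(normalized reads + 1) in a fit over all 20 libraries and 13896 genes, and differences are given as JNKi minus DMSO on that scale. At an adjusted p under 0.05, 670 genes were higher and 741 lower with JNKi, 10.3% of the genes counted. Over all genes fitted 10.2% passed, 4.84% higher and 5.33% lower. The counts in gene lists below are to be read beside the 10.3% of all genes counted. Most differences were modest: 174 genes were higher and 43 lower by a log2 difference of at least 1, and 58 and 4 by at least 2. The 2 values of each called gene lay wholly above or below the 2 values of the other group, as did those of 58.5% of all genes counted. With each library left out in turn the counts fell to 157 higher and 211 lower without JNKi replicate 1, to 235 and 324 without JNKi replicate 2 and to 146 and 230 without DMSO replicate 1, while 724 and 789 were called without DMSO replicate 2. In these fits the lone library of a group is assumed to vary like the other groups. A core of 231 genes, 91 higher and 140 lower, passed in all 4 such fits, and no gene of the 1411 changed sign. Genes called below belong to that core unless the library that ends the call is given. Rescaling by the upper quartile gave 869 genes higher and 589 lower, 59.6% higher in place of 47.5%.

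Direction went with level. Among genes with a mean of 20 to 50 normalized reads the median log2 difference was 0.35 and 72.8% lay above 0, and among those with 50 to 200 it was 0.15. Genes with 1000 to 5000 had a median of -0.04, and those with 5000 or more a median of -0.12 with 28.2% above 0. Of the genes with 5000 or more, 28 were called higher and 176 lower. A further measure moved with the groups. The 523 olfactory and vomeronasal receptor genes that stayed under a mean of 10 in every group, genes of sensory tissue, summed to 15.8 and 14.4 RPM (reads scaled to the depth of each library) in the JNKi libraries, against 8.59 and 7.11 in the DMSO libraries. The part of this low-level shift in the higher calls of genes with few reads, here a mean under 200, was not tested. That limit applies to each such gene named below, among them Pglyrp3, Krt14, Krt5, Igfbp3, Nqo1, Hspa1b and Mmp3.

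**Figure D1:**
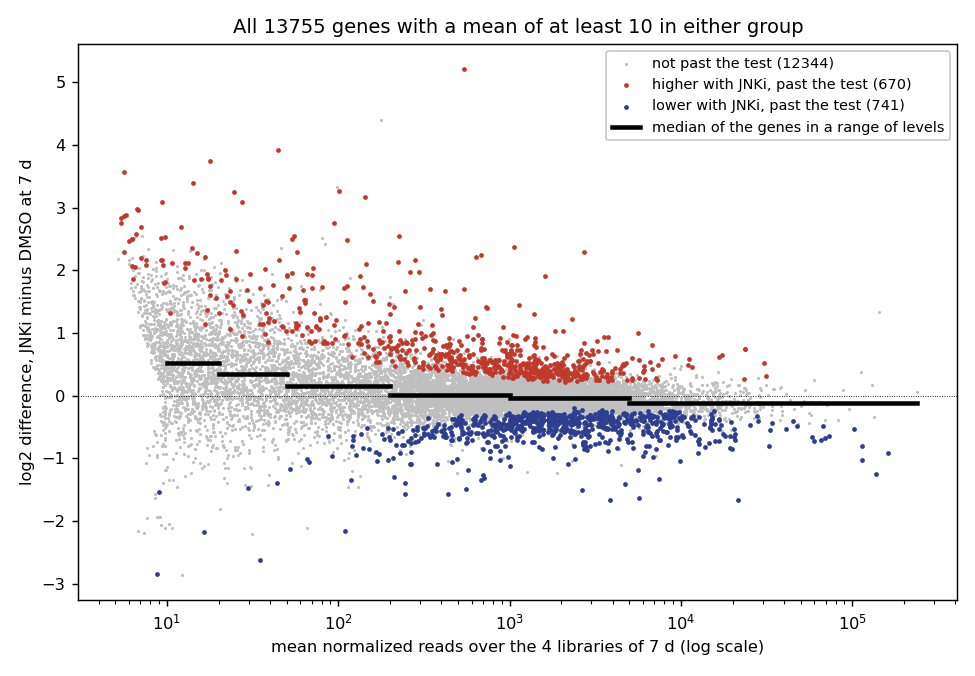
Difference between JNKi and DMSO at 7 d (log2 scale, vertical axis) against mean level (normalized reads, log axis) for each of the 13755 genes, with the 670 higher and 741 lower genes in colour and bars for the median of 6 ranges of level. The bars step down from 0.52 at a mean of 10 to 20 to -0.12 at 5000 or more, and the large positive differences lie mostly at low levels.

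Several of the largest increases were in genes of calcium binding and of innate defence. S100g, an S100-family calcium-binding protein known from intestine and uterus, had 286 and 229 normalized reads in the JNKi libraries, against 25.2 and 30.4 in the DMSO libraries. S100a8 had 133 and 199 with JNKi, against 23.6 and 23 with DMSO, and its partner S100a9 had 69.3 and 99.4 with JNKi, against 5 and 4.1 with DMSO; together they form an antimicrobial complex of neutrophils and stressed epithelia. All 3 were high in both JNKi libraries and low in both DMSO libraries, and no called gene had overlapping groups. All 3 also have few reads and lie in the range of levels where most genes were above 0. The log2 differences were 3.16 (SE 0.27, limma adjusted p = 7.7e-06), 2.75 (SE 0.47, adjusted p = 0.00187) and 3.92 (SE 0.55, adjusted p = 0.000468). In the list of S100 and annexin genes, which holds S100g but not the other 2, 2 were higher and 1 lower of 20 (15%, beside 10.3% of all genes). The list's median was 0.03 beside 0.02 over all genes. Slpi, a secreted inhibitor of leukocyte proteases, had 419 and 450.0 with JNKi, against 151.5 and 174 with DMSO (1.41, limma adjusted p = 0.00131). Pglyrp3, a peptidoglycan recognition protein, had 130.3 and 239 with JNKi, against 15.1 and 20.3 with DMSO, a difference of 3.26 that was no longer past the test without JNKi replicate 2 (2.83, limma adjusted p = 0.0581) or DMSO replicate 1 (3.06, limma adjusted p = 0.0562). In the list of acute-phase, complement and antimicrobial genes 4 of 25 were higher and none lower; 3 of these calls, S100a8, S100a9 and Slpi, held in every leave-one-out fit.

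Chemokine genes had the highest median difference of the lists read. Of 18 counted, 5 were higher and none lower, and the median was 0.99. Ccl20, the ligand of the receptor Ccr6, had 3471.5 and 5646 normalized reads with JNKi, against 916 and 898 with DMSO. The monocyte attractant Ccl7 had 1622 and 1918 with JNKi, against 360.2 and 322 with DMSO. Ccl9, a mouse CC chemokine, had 330.0 and 446 with JNKi, against 60.6 and 68.9 with DMSO. In all 3 the JNKi values lay far above both DMSO values, by log2 differences of 2.29 (SE 0.37, limma adjusted p = 0.00113), 2.37 (SE 0.35, adjusted p = 0.000726) and 2.55 (SE 0.37, adjusted p = 0.000634). Ccl2, another monocyte attractant, had 15935 and 21402 with JNKi, against 15677 and 12968 with DMSO and did not pass (limma adjusted p = 0.368), and in Cxcl1 the groups overlapped, with 2992 and 2568 with JNKi, against 3235 and 2378.5 with DMSO. Without JNKi replicate 1 the list had 3 higher. The NF-kB list, which holds the subunits that drive many chemokine genes, had 2 higher and 1 lower of 23 (13%, beside 10.3% of all genes) and a median of -0.03. Its member that held in every leave-one-out fit was Tnip3, an inhibitor that binds the NF-kB regulator A20, with 360.5 and 389 with JNKi, against 108 and 128 with DMSO (1.67, limma adjusted p = 0.0024). Nfkb1 had 5914 and 6256 with JNKi, against 6413 and 6471 with DMSO and was not past the test. Interferon-stimulated genes had 0 higher and 1 lower of 42, below the share among all genes.

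Because chemokines and S100a8 mark leukocytes as well, the leukocyte list was read beside them. Of 16 markers 9 were counted, 1 was higher and none lower. Of the 9, 7 lay above 0 and 2 below, with a median of 0.66 beside 0.02 over all genes. Over all genes with a mean of 10 to 20 the median was 0.52, with 78.2% above 0, and at 20 to 50 it was 0.35. The part of this low-level shift in the list's median was not tested. The list summed to 2285 and 2101 normalized reads with JNKi, against 1737 and 1721 with DMSO. Cd14 and Csf1r were its members with the highest means. The one called was Cd14, a co-receptor for bacterial lipopolysaccharide, which had 1267 and 1102 with JNKi, against 712 and 779 with DMSO (0.67), and was no longer called without JNKi replicate 1 (0.57, limma adjusted p = 0.183), JNKi replicate 2 (0.77, limma adjusted p = 0.0616) or DMSO replicate 1 (0.60, limma adjusted p = 0.162). Ptprc, which all leukocytes carry, had 11.1 and 17.5 with JNKi, against 11.8 and 5.4 with DMSO, and Tyrobp had 0 and 0.7 with JNKi, against 0 and 0 with DMSO. Csf1r, the receptor of macrophage colony-stimulating factor, had 807 and 778 with JNKi, against 880.3 and 798 with DMSO. Tyrobp was thus at or near 0 and Ptprc low in both groups while Cd14 and Csf1r were not, and the part of any leukocytes in the chemokine and S100 values was not tested beyond these levels.

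Cytokine genes split. Il11, an interleukin that TGF-β is known to induce, had 3078 and 3824 normalized reads with JNKi, against 7401 and 8282 with DMSO, and differed by -1.19 on the log2 scale (SE 0.22, limma adjusted p = 0.00335), and was no longer called without JNKi replicate 1 (-1.03, limma adjusted p = 0.0579). Tnfsf15, a cytokine of the tumour necrosis factor family, had 527 and 613 with JNKi, against 225.5 and 239 with DMSO (1.29), and was no longer called without JNKi replicate 1 (1.40, limma adjusted p = 0.055), JNKi replicate 2 (1.18, limma adjusted p = 0.0837) or DMSO replicate 1 (1.24, limma adjusted p = 0.0899). Over the list 2 genes were higher and 2 lower of 20, none in every leave-one-out fit, and Csf1 had 35510.4 and 49379.7 with JNKi, against 50693 and 37877 with DMSO, with overlapping groups.

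Squamous differentiation genes were mostly on the higher side. These genes build the cornified envelope, the cross-linked protein shell of stratified epithelia. Of 24 counted, 22 lay above 0, with a median of 0.79; 6 passed as higher and 1 as lower. The small proline-rich gene Sprr2h had 396.5 and 332 normalized reads with JNKi, against 89.2 and 75 with DMSO, a log2 difference of 2.14 (SE 0.24, limma adjusted p = 6.32e-05). Its neighbours in the family were also higher, Sprr1b at 3496 and 3004 with JNKi, against 1843 and 2086.5 with DMSO, and Sprr1a at 857 and 808 with JNKi, against 379 and 399 with DMSO. The Sprr1b call was lost without JNKi replicate 1 (0.62, limma adjusted p = 0.0501), and that of Sprr1a without JNKi replicate 1 (1.05, limma adjusted p = 0.122), JNKi replicate 2 (1.14, limma adjusted p = 0.0787) or DMSO replicate 1 (1.06, limma adjusted p = 0.121). Cdsn went the other way: corneodesmosin, which glues cornified cells together, had 360.5 and 328 with JNKi, against 937.5 and 654 with DMSO (-1.18, limma adjusted p = 0.00159). Sprr genes are alike in sequence, and how reads shared between copies were counted is not given in the sources used here. Many of these genes have few reads and so lie in the range of levels where most genes were above 0. Without JNKi replicate 1 the list had 1 higher and 1 lower. The basal keratin genes Krt14 (225 and 199 with JNKi, against 55.5 and 56.1 with DMSO) and Krt5 (61 and 56.7 with JNKi, against 25.2 and 25 with DMSO) were the 2 higher genes of the 15 in the basal and myoepithelial list, none of which was lower. The Krt14 call was lost without JNKi replicate 1 (1.81, limma adjusted p = 0.0883), JNKi replicate 2 (1.99, limma adjusted p = 0.0517) or DMSO replicate 1 (1.89, limma adjusted p = 0.0785). The Krt5 call was lost without JNKi replicate 1 (1.14, limma adjusted p = 0.153), JNKi replicate 2 (1.25, limma adjusted p = 0.1), DMSO replicate 1 (1.20, limma adjusted p = 0.133) or DMSO replicate 2 (1.19, limma adjusted p = 0.0737). Among 16 luminal and milk genes none was higher and 2 were lower, among them Mfge8, a milk fat globule protein, with 14474 and 15769 with JNKi, against 24129.5 and 23318 with DMSO (-0.65, limma adjusted p = 0.000141).

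**Figure D2:**
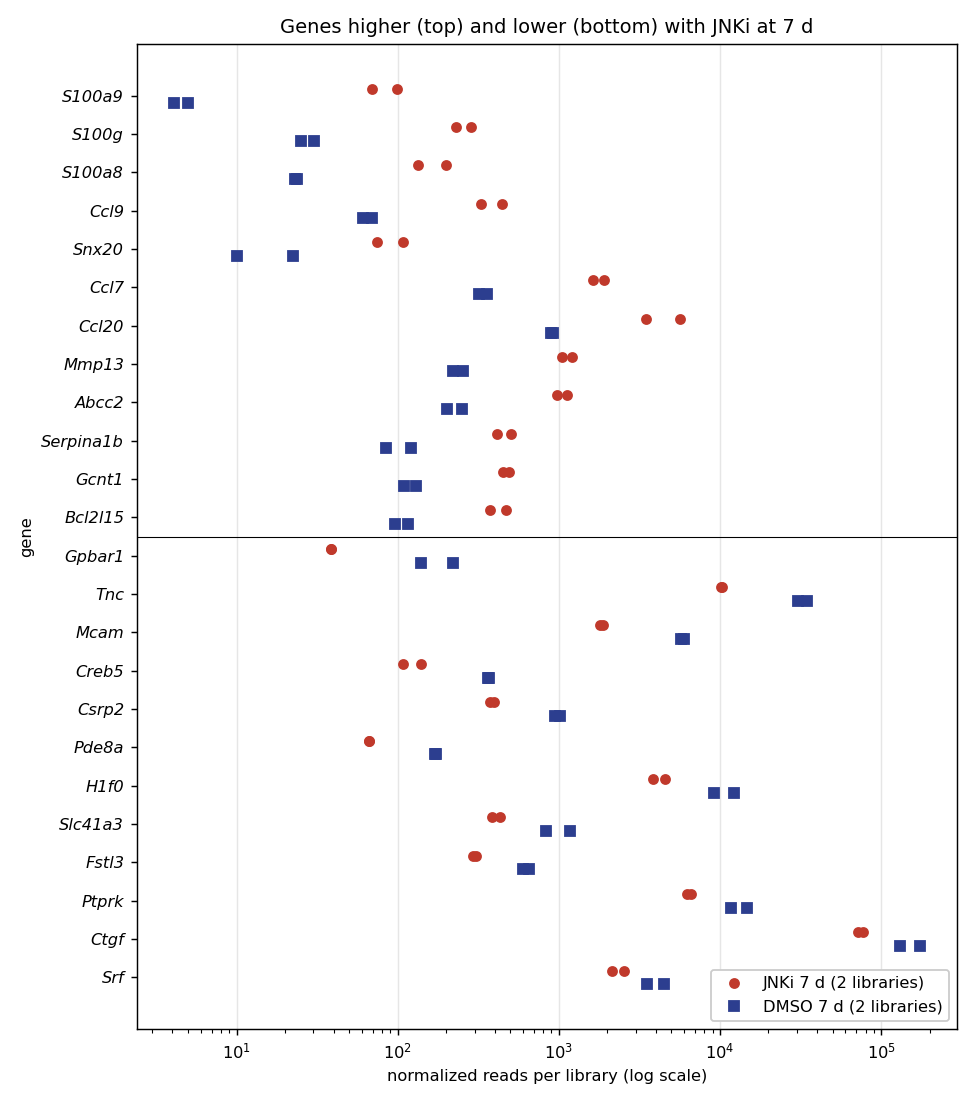
Normalized reads (log axis) of 12 genes called higher (upper rows) and 12 called lower (lower rows) in each library at 7 d, with JNKi as circles and DMSO as squares. In every row the 2 JNKi libraries lie on the same side of both DMSO libraries. That holds for every called gene, and for 58.5% of all genes counted. S100g stands at 286 and 229 with JNKi, against 25.2 and 30.4 with DMSO.

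Genes of export, glycan branching, apoptosis and proteolysis were among the other large increases. Abcc2, a pump that exports glutathione and glucuronide conjugates, had 973 and 1127 normalized reads with JNKi, against 251 and 203 with DMSO (2.21, SE 0.23, limma adjusted p = 4.38e-05). Mmp13, a collagenase and a well-known AP-1 target, had 1039.8 and 1214 with JNKi, against 254 and 219.7 with DMSO (2.24, SE 0.25, limma adjusted p = 6.08e-05). Gcnt1, a glycosyltransferase that branches O-linked glycans, had 493.5 and 448 with JNKi, against 109 and 130.4 with DMSO (1.97, limma adjusted p = 0.000161). All 3 genes were about the same in the 2 libraries of each group and well apart between the groups. Bcl2l15, a member of the Bcl-2 family, had 371.5 and 471 with JNKi, against 116 and 96 with DMSO (1.98), and Psrc1, a spindle protein and p53 target, had 1572 and 1742 with JNKi, against 498 and 736 with DMSO (1.45). Serpina1b, a mouse form of the protease inhibitor α-antitrypsin, had 413 and 505 with JNKi, against 84.2 and 121 with DMSO (2.17), and its near-identical copies in the mouse make the value uncertain. Snx20, a sorting nexin, had 74.9 and 107 with JNKi, against 10.1 and 22.3 with DMSO (2.49). Fxyd2, a regulator of the sodium pump, had 69.3 and 79.1 with JNKi, against 11.8 and 21 with DMSO (2.16). The last 2 have few reads and lie in the range of levels with a positive median, as do Chadl, Gm10768, Spib and Cyp2c65 below. Among genes with more reads, Slco4a1, an organic anion transporter, had 7362 and 7551 with JNKi, against 3639 and 3807 with DMSO (1.00, SE 0.14), and Rcan1, an inhibitor of the phosphatase calcineurin, had 2814 and 2683 with JNKi, against 1267 and 1415 with DMSO (1.04, SE 0.11). The gene listed as 5730469M10Rik, named Prxl2a in RefSeq, had 3072 and 3392 with JNKi, against 1338 and 1436 with DMSO (1.22). Gtse1, a protein of the S and G2 phases that binds microtubules and restrains p53, had 2293 and 2616 with JNKi, against 959 and 1489 with DMSO (1.03). The xenobiotic list as a whole had 3 higher and none lower of 30 (10%, beside 10.3% of all genes). Abcc2 was its member that held in every leave-one-out fit. Chadl, a collagen-binding matrix protein, had 119 and 129 with JNKi, against 38.7 and 34.5 with DMSO (1.73). The predicted gene Gm10768 had 191 and 189 with JNKi, against 42.1 and 26.4 with DMSO (2.48). Of the remaining large increases, Spib, an Ets factor of B cells, had 77.6 and 114 with JNKi, against 15.1 and 22.3 with DMSO (2.30) and lost its call without JNKi replicate 2 (2.02, limma adjusted p = 0.056) or DMSO replicate 1 (2.03, limma adjusted p = 0.0641). Cyp2c65, a cytochrome P450, had 103 and 87.5 with JNKi, against 13.5 and 17.6 with DMSO (2.54) and lost its call without JNKi replicate 1 (2.43, limma adjusted p = 0.0523) or DMSO replicate 1 (2.36, limma adjusted p = 0.0562).

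Tenascin C and the adhesion gene Mcam were among the decreases with the least spread. Tnc, a matrix glycoprotein of wounds and tumour stroma, had 10345 and 10163 normalized reads with JNKi, against 34913 and 30358 with DMSO, a log2 difference of -1.67 (SE 0.13, limma adjusted p = 7.7e-06). Mcam, an adhesion molecule of the immunoglobulin family, had 1891 and 1811 with JNKi, against 5984 and 5762 with DMSO (-1.67, SE 0.14, limma adjusted p = 7.7e-06). For both genes the 2 values of a group lay close together. Gpbar1, a membrane receptor for bile acids, had 38.8 and 38.5 with JNKi, against 139.7 and 219.7 with DMSO (-2.15, SE 0.24), and Pde8a, a phosphodiesterase that degrades cyclic AMP, had 66.5 and 66.5 with JNKi, against 170.0 and 172 with DMSO (-1.35). Creb5, a transcription factor of the Atf2 family, had 139 and 108.5 with JNKi, against 365 and 368 with DMSO (-1.57, SE 0.27, limma adjusted p = 0.00173). H1f0, a linker histone of resting and differentiated cells, had 4581 and 3853 with JNKi, against 12239.8 and 9183 with DMSO (-1.34, limma adjusted p = 0.000193). Signalling and transport genes were among the decreases too. Ptprk, a receptor-type tyrosine phosphatase that sits at cell contacts, had 6214 and 6567 with JNKi, against 14801.5 and 11742 with DMSO (-1.05, SE 0.11). Slc41a3, a magnesium transporter, had 385 and 432.5 with JNKi, against 1165 and 827 with DMSO (-1.26), and Atp2b4, a calcium pump of the plasma membrane, had 1442 and 1361 with JNKi, against 2976 and 3014 with DMSO (-1.10). The predicted gene Gm6484 had 186 and 255 with JNKi, against 761 and 545 with DMSO (-1.56). Among decreases that rest on particular libraries, Lrrc32, which tethers latent TGF-β to the cell surface, had 2573 and 2511 with JNKi, against 7855 and 5824 with DMSO (-1.41) and lost its call without JNKi replicate 1 (-1.43, limma adjusted p = 0.0553) or DMSO replicate 1 (-1.20, limma adjusted p = 0.0986).

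Actin and contractile genes were the list with the largest share of decreases. Serum response factor (SRF) and its cofactors of the MRTF family turn these genes on when actin polymerises. None of 32 was higher and 12 were lower, 26 lay below 0, and the median was -0.39. Of the 12 calls 9 held in every leave-one-out fit, and 9 genes were called without JNKi replicate 1. Srf itself, which stands in the immediate-early list, had 2141 and 2525 normalized reads with JNKi, against 3535 and 4462 with DMSO, and differed by -0.77 on the log2 scale (SE 0.11, limma adjusted p = 0.000402). The LIM-domain gene Csrp2 had 396.5 and 374 with JNKi, against 944 and 1023 with DMSO (-1.35, SE 0.16, limma adjusted p = 0.000142), and Csrp1 had 8670.3 and 8567.5 with JNKi, against 13548 and 19351 with DMSO (-0.91). Focal adhesion and stress fibre proteins moved the same way. Zyx, zyxin, had 14268.5 and 13899 with JNKi, against 26039.8 and 24821 with DMSO (-0.85, SE 0.09, limma adjusted p = 5.04e-05). Fhl2, a LIM-only cofactor, had 4181 and 4391 with JNKi, against 7897 and 8034 with DMSO (-0.89), and Pdlim7, an actin-anchored LIM protein, had 5831 and 5529.9 with JNKi, against 8867 and 9709 with DMSO (-0.71). The tropomyosin genes Tpm1 (-0.68) and Tpm4 (-0.53), the α-actinin gene Actn1 (-0.48) and the myosin light chain gene Myl6 (-0.62) were lower by smaller steps. The nonmuscle myosin heavy chain gene Myh9 had 87735 and 88681 with JNKi, against 102349.9 and 101693 with DMSO, and did not pass (limma adjusted p = 0.263). The immediate-early list, with 1 higher and 2 lower of 17 and a median of -0.27, held Ctgf, a matricellular factor that SRF and YAP cofactors control, which had 72355 and 76947 with JNKi, against 174631 and 131161 with DMSO (-1.02, SE 0.15, limma adjusted p = 0.000641), while the related Cyr61 had 36617 and 45539 with JNKi, against 58509 and 53124 with DMSO and did not pass (limma adjusted p = 0.0763). Several of these genes had a mean of 5000 or more, and the median of all genes with a mean of 5000 or more was -0.12.

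Part of the basement membrane and of the collagen-modifying enzymes was lower with JNKi. Of 47 matrix genes other than the EMT markers none was higher and 11 were lower, 7 of them in every leave-one-out fit and 8 without JNKi replicate 1, although the list's median was 0.07. Hspg2, the proteoglycan perlecan, had 9386 and 10515 normalized reads with JNKi, against 18100.5 and 16928 with DMSO (-0.82, SE 0.09, limma adjusted p = 6.32e-05). The paired type IV collagen chains Col4a1 (22564.5 and 25289 with JNKi, against 44824 and 38706 with DMSO) and Col4a2 (11803.5 and 13253 with JNKi, against 22414 and 18876 with DMSO) differed by -0.80 and -0.72 on the log2 scale. Col18a1, the endostatin precursor, differed by -0.64, Col5a1, a fibril-nucleating collagen, by -1.02, and Fbln2, a fibulin that links basement membranes to elastic fibres, by -0.80. Among 22 collagen-modifying genes 6 were lower and none higher, with a median of -0.21 and 3 calls in every leave-one-out fit. These were Tgm2, a transglutaminase that cross-links matrix (13922 and 13802 with JNKi, against 23468 and 25790.0 with DMSO, -0.83), Pcolce, an enhancer of procollagen cleavage (-0.67), and the lysyl hydroxylase gene Plod1 (-0.62). The lysyl oxidase-like gene Loxl4 had 17291 and 20598 with JNKi, against 21775 and 18250.4 with DMSO, and the groups overlapped. Proteases and their inhibitors had 2 higher and 11 lower of 38. Mmp13 was the call that held in every leave-one-out fit, and without JNKi replicate 1 the list had 2 higher and 1 lower. The integrin chain Itgb1, the shared β subunit of collagen and fibronectin receptors, had 56081 and 58605 with JNKi, against 96055 and 83078.5 with DMSO (-0.64, limma adjusted p = 0.00101), the only call among 19 integrin genes, of which 13 lay above 0, with a median of 0.27. The cell-surface proteoglycans Sdc3 (-0.85) and Gpc1 (-0.49) were lower as well.

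Among 35 ligands, receptors and feedback genes of the TGF-β pathway, 1 was higher and 9 were lower. Of the list 30 lay below 0, and the median was -0.22. Fstl3, a secreted activin antagonist, had 294 and 305 normalized reads with JNKi, against 649.7 and 601.5 with DMSO (-1.06, SE 0.17, limma adjusted p = 0.001). Latent TGF-β binding proteins hold the ligand in the matrix: Ltbp4 had 529.6 and 487 with JNKi, against 1059 and 979 with DMSO (limma adjusted p = 0.0011), and Ltbp3 had 11934 and 12404 with JNKi, against 17978 and 16696 with DMSO (-0.51). Those 3 genes held in every leave-one-out fit, and the list had 3 lower without JNKi replicate 1. Tgfb1 itself had 1647 and 1717 with JNKi, against 2139 and 2032 with DMSO (-0.31, limma adjusted p = 0.025), and was no longer called without JNKi replicate 1 (-0.28, limma adjusted p = 0.165), JNKi replicate 2 (-0.34, limma adjusted p = 0.0779) or DMSO replicate 1 (-0.27, limma adjusted p = 0.161). The TGF-β feedback gene Pmepa1 had 21311 and 20147 with JNKi, against 25065 and 23192.5 with DMSO and did not pass (limma adjusted p = 0.197). Other ligand and receptor families had few calls that held. Unc5b, a netrin receptor, had 15541 and 15974 with JNKi, against 28384 and 23149.9 with DMSO (-0.70, limma adjusted p = 0.000274). Its axon guidance list of 55 had 1 higher and 6 lower (12.7%, beside 10.3% of all genes). Kremen1, a Wnt co-receptor for Dickkopf, differed by -0.51 within a Wnt list of 18 with 1 higher and 4 lower. Fam38a, a mechanosensitive ion channel, had 5401 and 5988 with JNKi, against 10828 and 8055 with DMSO (-0.72). Igfbp3, an insulin-like growth factor binding protein, was on the higher side, with 119 and 122 with JNKi, against 48.8 and 51.4 with DMSO (1.25). Igfbp3 has few reads and lies in the range of levels with a positive median. Its growth factor list of 45 had 2 higher and 7 lower. The EGF-family ligand Areg had 1369.7 and 1230.4 with JNKi, against 2878 and 1832 with DMSO (-0.82), and was no longer called without JNKi replicate 1 (-0.90, limma adjusted p = 0.0765), JNKi replicate 2 (-0.74, limma adjusted p = 0.116) or DMSO replicate 1 (-0.50, limma adjusted p = 0.239).

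Both glutamate-cysteine ligase genes and the ferritin gene Fth1 were higher. They are in the list of targets of NRF2, the factor that cells use against oxidants. Of its 28 genes 9 were higher and none lower, 19 did not pass, and the median was 0.12. The catalytic and modifier subunits of glutamate-cysteine ligase, which makes the first step to glutathione, moved alike. Gclc had 3519 and 3426 normalized reads with JNKi, against 1915 and 1974 with DMSO (0.84, SE 0.13, limma adjusted p = 0.00106), and Gclm had 4655 and 4688 with JNKi, against 2158 and 2785 with DMSO (0.93, SE 0.10, limma adjusted p = 5.44e-05). Fth1, the heavy chain of ferritin, had 29269 and 29693.5 with JNKi, against 17158 and 18004 with DMSO (0.75, limma adjusted p = 0.000253), whereas the light chain gene Ftl1 had 65833 and 58012 with JNKi, against 65415 and 67653 with DMSO (-0.11, adjusted p = 0.616). Those 3 higher genes held in every leave-one-out fit, and 4 of the list did without JNKi replicate 1. Hmox1, haem oxygenase, had 3696 and 3852 with JNKi, against 2515 and 2080.4 with DMSO (0.72), and was no longer called without JNKi replicate 2 (0.69, limma adjusted p = 0.0524). Nqo1, a classical NRF2 target kept in the xenobiotic list, had 72.1 and 90.3 with JNKi, against 35.3 and 47.3 with DMSO (0.96), and was no longer called without JNKi replicate 1 (1.12, limma adjusted p = 0.0882), JNKi replicate 2 (0.80, limma adjusted p = 0.194) or DMSO replicate 1 (0.76, limma adjusted p = 0.239). Heat shock genes showed a change in Hspa1b, the inducible Hsp70 gene, with 263 and 308 with JNKi, against 77.4 and 136.5 with DMSO (1.46, limma adjusted p = 0.000743); its near-identical copy Hspa1a makes the value uncertain. In that list of 37, 4 were higher and none lower (10.8%, beside 10.3% of all genes), with a median of 0.03.

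The amino acid response was on the lower side. This program is run by the factor Atf4 and supplies amino acids under stress, and none of 34 genes of it and of the unfolded protein response was higher while 7 were lower; 27 lay below 0, with a median of -0.21. The amino acid transporter gene Slc7a5 had 9430.1 and 9018 normalized reads with JNKi, against 19696 and 12499 with DMSO (-0.77, SE 0.17, limma adjusted p = 0.0112). The stress factor gene Ddit3 had 1051 and 1127 with JNKi, against 2334.5 and 1665 with DMSO (-0.86, SE 0.25, limma adjusted p = 0.0407). The groups did not overlap, but DMSO replicate 1 was the highest library for both. The Slc7a5 call was lost without JNKi replicate 1 (-0.80, limma adjusted p = 0.0693), JNKi replicate 2 (-0.73, limma adjusted p = 0.0764) or DMSO replicate 1 (-0.44, limma adjusted p = 0.179), and the Ddit3 call without JNKi replicate 1 (-0.81, limma adjusted p = 0.203), JNKi replicate 2 (-0.91, limma adjusted p = 0.13) or DMSO replicate 1 (-0.61, limma adjusted p = 0.314). None of the 7 calls held in every leave-one-out fit, and none was made without JNKi replicate 1. Hspa5, the main chaperone of the endoplasmic reticulum, had 30275.5 and 30669.8 with JNKi, against 37273 and 29436 with DMSO, and did not pass.

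Sterol and fatty acid synthesis genes were higher in 9 and lower in 1 of 37, with a median of 0.27. Insig1, which holds the sterol sensor in the endoplasmic reticulum, had 1578 and 1919.8 normalized reads with JNKi, against 806 and 1229 with DMSO (0.81, SE 0.22, limma adjusted p = 0.0294), and the squalene epoxidase gene Sqle had 3410.5 and 4064 with JNKi, against 2028 and 2731 with DMSO (0.66, SE 0.13, limma adjusted p = 0.00598). DMSO replicate 1 had the lowest value of both. The Insig1 call was lost without JNKi replicate 1 (0.95, limma adjusted p = 0.0817), JNKi replicate 2 (0.66, limma adjusted p = 0.192) or DMSO replicate 1 (0.50, limma adjusted p = 0.31), and the Sqle call without JNKi replicate 2 (0.54, limma adjusted p = 0.0776) or DMSO replicate 1 (0.45, limma adjusted p = 0.107). Lpin1, a phosphatidate phosphatase of triglyceride synthesis, had 496 and 543 with JNKi, against 293 and 306 with DMSO (0.79) and was the member that held in every leave-one-out fit; 3 were higher without JNKi replicate 1. The lipid droplet coat gene Plin2 had 16828 and 15683 with JNKi, against 26899.9 and 23139.8 with DMSO (-0.62, limma adjusted p = 0.0021). Its list of lipid storage genes had 2 higher and 3 lower of 33 (15.2%, beside 10.3% of all genes). Psap, the precursor of the lysosomal saposins, had 32227.5 and 34971 with JNKi, against 52746 and 44951 with DMSO (-0.54), in a lysosome list with 4 higher and 8 lower of 42.

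Of 30 G2/M and spindle genes 4 were higher (13.3%, beside 10.3% of all genes in either direction) and 26 lay above 0, with a median of 0.23. None of the list passed without JNKi replicate 1, JNKi replicate 2 or DMSO replicate 1, and 8 were higher without DMSO replicate 2. The mitotic kinase gene Aurkb had 1173 and 1175 normalized reads with JNKi, against 690.1 and 976 with DMSO (0.52), and was no longer called without JNKi replicate 1 (0.52, limma adjusted p = 0.188), JNKi replicate 2 (0.51, limma adjusted p = 0.165) or DMSO replicate 1 (0.27, limma adjusted p = 0.43). DNA replication genes had 1 higher and 1 lower of 36 (5.56%). Ccnd1, cyclin D, which AP-1 can activate, had 21059 and 20998 with JNKi, against 14323.5 and 12656 with DMSO (0.64, SE 0.13, limma adjusted p = 0.00658), and was no longer called without JNKi replicate 1 (0.64, limma adjusted p = 0.0564). Among 44 p53 targets and apoptosis genes 6 were higher and 2 lower, with a median of 0.11. Besides Bcl2l15 and Psrc1, the member that held in every leave-one-out fit was Perp, a p53 target of desmosomes, with 2889 and 3428 with JNKi, against 1966 and 1989.8 with DMSO (0.67, limma adjusted p = 0.00131). In the list of CDK inhibitors, D cyclins and the Myc network, with 2 higher and 2 lower of 21, the CDK inhibitor gene Cdkn1a had 7683 and 7907 with JNKi, against 4482 and 6371 with DMSO (0.54), and was no longer called without JNKi replicate 1 (0.57, limma adjusted p = 0.0798), JNKi replicate 2 (0.52, limma adjusted p = 0.0839) or DMSO replicate 1 (0.29, limma adjusted p = 0.202). Nfil3, a repressor of the circadian output, had 1927 and 2080.1 with JNKi, against 3792 and 3192 with DMSO (-0.80, limma adjusted p = 0.000281), and Hoxb9, a homeobox gene, had 169 and 169 with JNKi, against 343 and 382 with DMSO (-1.10). Lists of general upkeep had few calls. Of 50 ribosomal protein genes none was higher and 2 were lower, while 46 lay below 0, with a median of -0.15. Of 41 respiratory chain genes none was higher and 1 was lower, with a median of -0.06. Of 22 histone genes none passed, while 18 lay above 0, with a median of 0.55. Their median was 0.05, 0.58, 0.48 and 0.57 at 24, 48, 72 and 96 h. The list's sums at 7 d overlapped, with 6993 and 7400 normalized reads with JNKi, against 8496 and 6766 with DMSO.

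**Figure D3:**
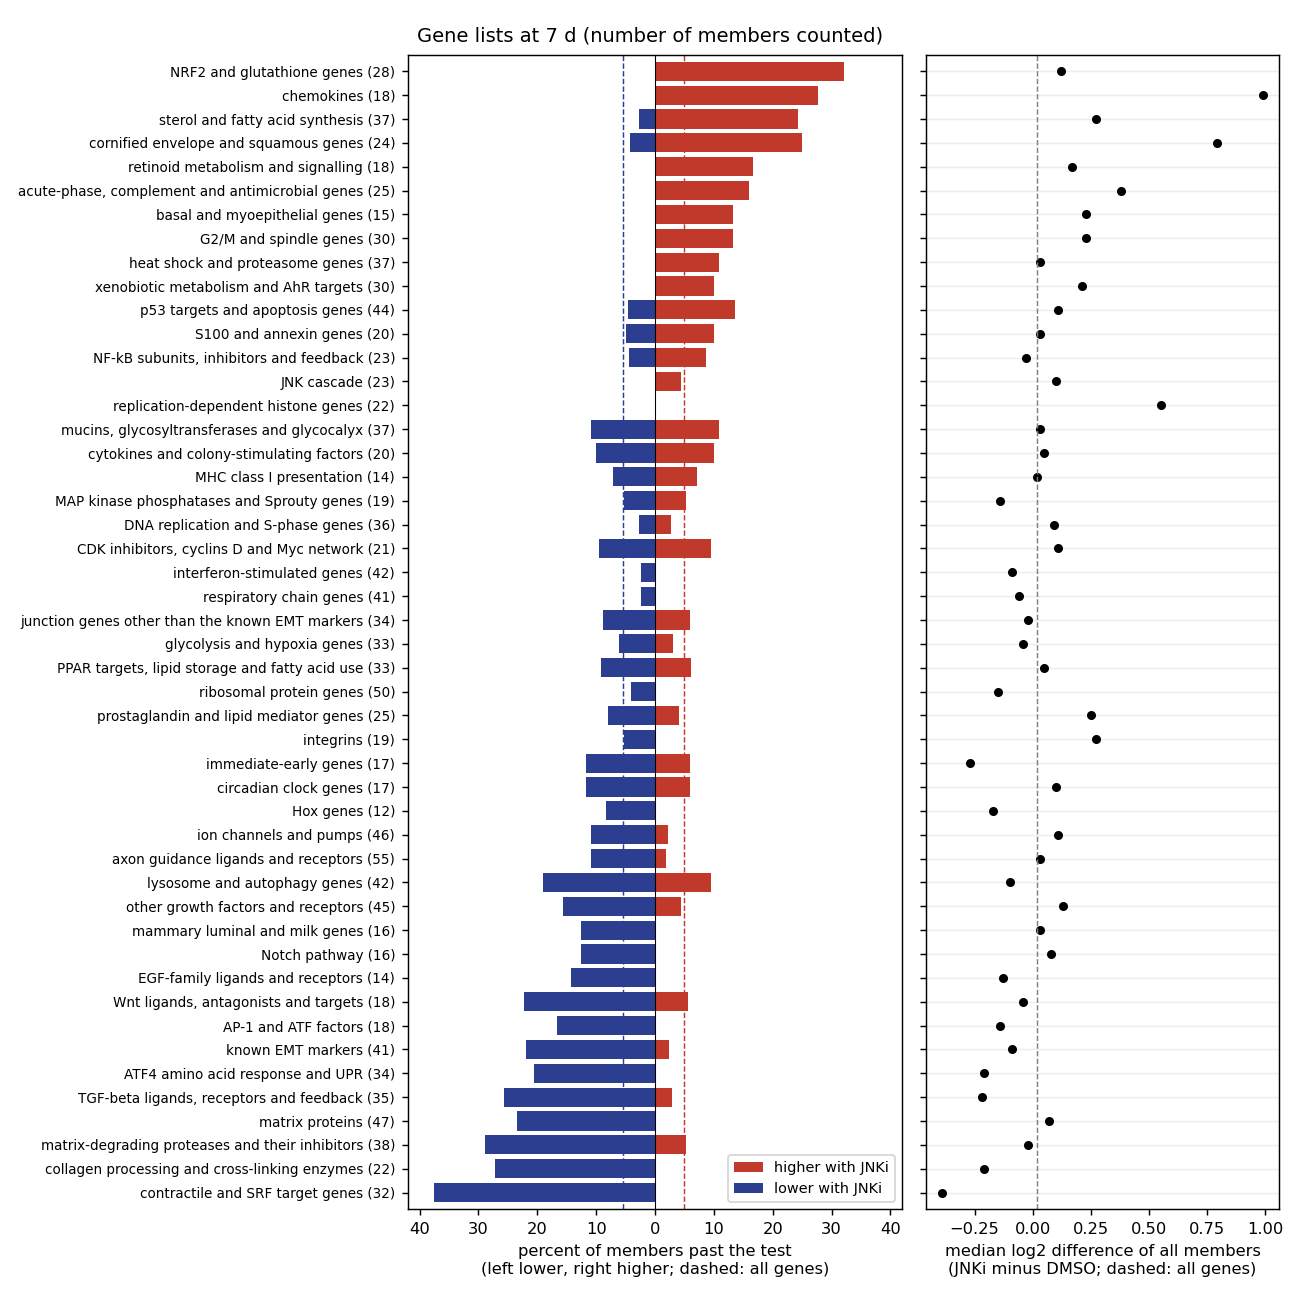
Share of each gene list past the test at 7 d (left panel, percent of members counted, lower to the left and higher to the right) and median log2 difference of all members (right panel), for lists with at least 10 members counted; dashed lines give all genes counted. Contractile genes stand at the lower end with 12 of 32 lower, and NRF2 and glutathione genes at the upper end with 9 of 28 higher.

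The genes of the JNK cascade had 1 call among them. JNK itself is encoded by Mapk8, which had 890.0 and 780.4 normalized reads with JNKi, against 1141 and 805 with DMSO, and by Mapk9, which had 2426 and 2408 with JNKi, against 2233.5 and 2256 with DMSO; neither passed (limma adjusted p = 0.358 and 0.409). The neuronal form Mapk10 was at 13.9 and 21 with JNKi, against 6.7 and 6.8 with DMSO. Of 23 genes in the list 1 was higher, Map3k11 at 0.35, and was no longer called without JNKi replicate 1 (0.34, limma adjusted p = 0.0772), JNKi replicate 2 (0.35, limma adjusted p = 0.0564) or DMSO replicate 1 (0.26, limma adjusted p = 0.123). Among 18 AP-1 and ATF genes 3 were lower and none higher, with none in every leave-one-out fit. Jun had 1519.5 and 1899 with JNKi, against 2349.7 and 2700.2 with DMSO (-0.57, SE 0.15, limma adjusted p = 0.0272), and was no longer called without JNKi replicate 1 (-0.41, limma adjusted p = 0.252), DMSO replicate 1 (-0.67, limma adjusted p = 0.0771) or DMSO replicate 2 (-0.47, limma adjusted p = 0.128). Atf3, a stress-induced member, had 1126 and 1624.5 with JNKi, against 4569.7 and 3221 with DMSO (-1.50), and was no longer called without JNKi replicate 1 (-1.24, limma adjusted p = 0.208), JNKi replicate 2 (-1.77, limma adjusted p = 0.0603) or DMSO replicate 1 (-1.25, limma adjusted p = 0.208). Fos had 211 and 209 with JNKi, against 177 and 182.5 with DMSO (limma adjusted p = 0.894), and Junb had 8698 and 10742 with JNKi, against 11472 and 11874 with DMSO (adjusted p = 0.343). The MAP kinase phosphatases and Sprouty genes, which damp MAP kinase signals, had 1 higher and 1 lower of 19 (10.5%, beside 10.3% of all genes).

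The EMT markers moved in part. Of 41 counted, 1 was higher and 9 lower, with a median of -0.09. Tagln, transgelin, had 2798 and 2704 normalized reads with JNKi, against 7360.4 and 9821 with DMSO (-1.63, SE 0.22), and fibronectin, Fn1, had 76921 and 86707 with JNKi, against 218959 and 171211 with DMSO (-1.25, SE 0.18). The N-cadherin gene Cdh2 (-0.60) and the repressor gene Zeb1 (-0.55) were also lower in every leave-one-out fit. So was the luminal keratin gene Krt18 (-0.72), an epithelial marker. The E-cadherin gene Cdh1 had 4089.8 and 4271.5 with JNKi, against 4399.7 and 3746 with DMSO, and Vim had 51756 and 49953 with JNKi, against 49366 and 58948.5 with DMSO; in both the groups overlapped. Snai1 (0.06) and Zeb2 (-0.19) did not pass. Mmp3, a stromelysin, was the higher one, at 30.5 and 35.7 with JNKi, against 0 and 5.4 with DMSO (3.75, limma adjusted p = 0.00298), and was no longer called without DMSO replicate 1 (2.41, limma adjusted p = 0.0533). Among junction genes outside the marker list 2 were higher and 3 lower of 34, with cingulin, Cgn, higher (2714.5 and 3231 with JNKi, against 1976 and 2078 with DMSO, 0.55) and the desmosomal plakophilin gene Pkp2 lower (4708 and 4716 with JNKi, against 6217.5 and 6799 with DMSO, -0.46). Fibroblast markers had 3 counted of 10 and no call, with a median of -0.06. Among the fibroblast genes, Dcn was at 8.3 and 6.3 with JNKi, against 5 and 4.1 with DMSO. Adipocyte markers had 2 counted and no call, with a median of 0.78, and both have few reads, where most genes were above 0. Among endothelial markers, Cdh5, the VE-cadherin gene, had 371.5 and 347 with JNKi, against 303 and 273 with DMSO, and did not pass (limma adjusted p = 0.364). Flt1, a receptor of vascular endothelial growth factor, had 269 and 282 with JNKi, against 389 and 383 with DMSO (-0.49, limma adjusted p = 0.0208), and was no longer called without JNKi replicate 1 (-0.45, limma adjusted p = 0.14), JNKi replicate 2 (-0.52, limma adjusted p = 0.0747), DMSO replicate 1 (-0.47, limma adjusted p = 0.117) or DMSO replicate 2 (-0.50, limma adjusted p = 0.051). It was the 1 call among the 7 counted of that list, of which 4 lay above 0 and 3 below, with a median of 0.32. The list's summed level was 859.5 and 884.8 normalized reads with JNKi, against 882.1 and 786 with DMSO. The part of any such cells in the results was not tested.

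Promoter sequences are shown for genes that hold an exact match to a motif of the pathway, so that the letters stand beside the values above. The AP-1 windows shown are of genes of both directions, and the other windows shown are of lower genes alone. RefSeq promoter windows (build GRCm38.p6, 250 bases before to 50 after the start) were matched to 10842 of the 13755 genes, and motifs were searched on both strands. The AP-1 letters TGACTCA stood in 5.2% of all windows, in 4.68% of those of higher genes, in 5.53% of those of lower genes, in 10.5% of the 133 windows of genes higher by a log2 difference of at least 1, and in 10.7% of the 28 windows of genes lower by as much. The window holding AP-1 letters is given for the proteases Mmp13 and Mmp3 and for Sprr2h, all higher, and for Il11, which was lower, so the same letters stood in genes of both directions. Capitals mark the match, which begins 35 bases before the start in Mmp13, 46 in Mmp3, 198 in Sprr2h and 98 in Il11; the windows lie at chr9:7272264-7272563, plus strand, chr9:7445572-7445871, plus strand, chr3:92385435-92385734, plus strand and chr7:4778092-4778391, minus strand.
Mmp13: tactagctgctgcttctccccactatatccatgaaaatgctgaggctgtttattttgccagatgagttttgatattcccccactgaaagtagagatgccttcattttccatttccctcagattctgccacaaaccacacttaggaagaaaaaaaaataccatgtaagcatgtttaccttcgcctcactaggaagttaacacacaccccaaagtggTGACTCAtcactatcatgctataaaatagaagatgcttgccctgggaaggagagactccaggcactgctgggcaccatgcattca
Mmp3: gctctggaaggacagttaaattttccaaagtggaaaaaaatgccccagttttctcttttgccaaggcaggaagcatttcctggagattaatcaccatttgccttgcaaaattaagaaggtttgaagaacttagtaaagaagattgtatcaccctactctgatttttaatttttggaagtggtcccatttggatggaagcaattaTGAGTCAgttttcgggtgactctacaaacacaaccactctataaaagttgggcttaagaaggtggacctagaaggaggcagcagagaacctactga
Sprr2h: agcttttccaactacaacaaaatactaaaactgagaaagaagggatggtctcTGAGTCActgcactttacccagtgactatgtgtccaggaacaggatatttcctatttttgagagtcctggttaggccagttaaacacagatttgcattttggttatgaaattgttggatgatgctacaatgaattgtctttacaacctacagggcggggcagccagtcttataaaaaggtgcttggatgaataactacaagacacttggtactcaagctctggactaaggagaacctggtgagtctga
Il11: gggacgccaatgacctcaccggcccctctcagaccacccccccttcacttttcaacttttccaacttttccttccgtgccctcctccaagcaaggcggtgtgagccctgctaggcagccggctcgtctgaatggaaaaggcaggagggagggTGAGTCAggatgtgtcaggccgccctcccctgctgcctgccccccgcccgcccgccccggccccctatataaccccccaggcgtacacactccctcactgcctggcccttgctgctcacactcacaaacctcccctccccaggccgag

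The cyclic AMP response element TGACGTCA, which Atf2 and Creb family dimers bind, stood in 3.5% of all windows, in 2.06% of those of higher genes and in 3.74% of those of lower genes. By count that was 11 higher and 21 lower genes, with Rcan1 among the higher. Among genes with a log2 difference of at least 1 the element stood in 0.752% of the 133 windows of higher genes and in 7.14% of the 28 of lower genes. It is shown for Creb5 and Mcam, both lower, where it begins 45 and 29 bases before the start (chr6:53287053-53287352, plus strand and chr9:44134408-44134707, plus strand).
Creb5: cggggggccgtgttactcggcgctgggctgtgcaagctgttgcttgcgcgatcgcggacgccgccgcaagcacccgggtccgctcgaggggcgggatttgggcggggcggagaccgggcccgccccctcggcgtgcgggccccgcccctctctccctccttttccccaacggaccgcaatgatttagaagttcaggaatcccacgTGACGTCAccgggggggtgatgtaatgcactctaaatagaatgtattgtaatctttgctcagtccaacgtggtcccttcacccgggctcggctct
Mcam: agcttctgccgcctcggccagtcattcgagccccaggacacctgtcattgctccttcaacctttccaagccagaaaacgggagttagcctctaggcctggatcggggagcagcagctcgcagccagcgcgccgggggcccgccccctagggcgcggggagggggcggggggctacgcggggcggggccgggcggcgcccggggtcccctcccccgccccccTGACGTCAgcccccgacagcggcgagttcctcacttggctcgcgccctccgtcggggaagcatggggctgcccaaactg

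The CArG box, the element that SRF binds, stood in 1.57% of all windows, in 1.31% of those of higher genes and in 3.74% of those of lower genes. By count that was 7 higher and 21 lower genes. Among genes with a log2 difference of at least 1 the box stood in 0.752% of the 133 windows of higher genes and in 0 of the 28 of lower genes. Srf, with a log2 difference of -0.77, has 2 such boxes in its own window (chr17:46556113-46556412, minus strand), and Fhl2, at -0.89, has 1 (chr1:43196712-43197011, minus strand), beginning 96 bases before the start. Capitals mark the boxes.
Srf: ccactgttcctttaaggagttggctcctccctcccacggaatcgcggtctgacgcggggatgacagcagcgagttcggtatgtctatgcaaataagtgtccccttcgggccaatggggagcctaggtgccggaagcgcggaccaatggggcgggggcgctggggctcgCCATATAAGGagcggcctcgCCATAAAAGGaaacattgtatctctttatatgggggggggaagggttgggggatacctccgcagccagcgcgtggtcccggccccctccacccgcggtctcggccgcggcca
Fhl2: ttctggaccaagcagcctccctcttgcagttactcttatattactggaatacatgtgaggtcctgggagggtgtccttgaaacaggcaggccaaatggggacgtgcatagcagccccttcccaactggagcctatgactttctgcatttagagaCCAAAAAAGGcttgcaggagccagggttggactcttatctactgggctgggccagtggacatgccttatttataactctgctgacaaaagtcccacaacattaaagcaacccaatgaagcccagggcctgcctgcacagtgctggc
Other motifs were searched too, with shares given for windows of all, higher and lower genes in that order. The antioxidant response element stood in 17%, 15.7% and 18.9%, and the TEAD motif in 14.8%, 13.9% and 17.1%. The SMAD box stood in 0.304%, 0.562% and 0.357%. The NF-kB motif stood in 0.24%, 0.562% and 0.357%, and the HNF4 motif in 0.489%, 0.749% and 0.535%. The matches are descriptions of these windows, and binding was not measured.

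More genes passed at 7 d than at the earlier times in each fit tried, and how many passed early depended on the fit. In the limma fit without a block no gene of 13896 passed at 24 and 48 h, 10 did at 72 h (0.072%, 6 higher and 4 lower) and 1 did at 96 h (0.0072%), each from 2 libraries per group. Unadjusted p-values under 0.05 numbered 610, 521, 1125 and 677 at these times and 3690 at 7 d. At 24 to 96 h, unlike 7 d, replicates with the same number deviated together. With a replicate block within each time limma called 19, 15, 334 and 99 genes at 24, 48, 72 and 96 h and 3522 at 7 d. With 1 replicate block shared by all times it called 0, 0, 15 and 0 at the earlier times and 1701 at 7 d. On recovered reads edgeR called 0, 0, 15 and 1 at the earlier times and 1589 at 7 d, and DESeq2 1, 2, 105 and 34 at the earlier times and 1581 at 7 d. These counts are over all genes fitted. The 7 d difference minus the mean of the 4 earlier differences was tested directly, with no library on both sides. In that test 464 genes passed (3.37%), 230 with a more positive and 234 with a more negative effect at 7 d. For 446 of them the sign was that of a 7 d call. Both tests use the same 7 d libraries, so that overlap gives no separate support to the 7 d calls. Of the 464 genes, 47 held with each 7 d library left out in turn. Rcan1 differed by -0.07, 0.16, 0.38 and 0.34 at 24, 48, 72 and 96 h and by 1.04 at 7 d. Gclm differed by -0.21, -0.03, 0.06 and 0.37 at those times and by 0.93 at 7 d, and Csrp2 by 0.05, -0.12, -0.32 and -0.12 before and by -1.35 at 7 d. In these 3 genes the difference was largest at 7 d. A smaller trend was present before 7 d. Of the 670 higher genes 25.1% were above 0 at all 4 earlier times, beside 10.6% of all genes, and of the 741 lower genes 21.9% were below 0 at all 4, beside 11.1% of all genes; their medians at 96 h were 0.12 and -0.11.

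Some genes had estimates on the side of the 7 d difference at 48, 72 and 96 h as well. Ccl20 differed by 1.23, 1.17, 2.45 and 1.11 at 24, 48, 72 and 96 h and by 2.29 at 7 d. Its difference passed at 72 h (limma adjusted p = 0.0163) but not at 24, 48 or 96 h. The 7 d effect of Ccl20 was not past the test against the earlier ones (0.79, limma adjusted p = 0.294). Ltbp3 differed by 0.05, -0.24, -0.68 and -0.32 before and by -0.51 at 7 d (difference -0.21, limma adjusted p = 0.237). Tnc and Mcam were on the lower side from 48 h on, with the largest difference at 7 d. Tnc differed by 0.23, -0.21, -0.70 and -0.67 and then -1.67, and Mcam by 0.18, -0.10, -0.93 and -0.46 and then -1.67. The levels show which group moved between 96 h and 7 d. Tnc stood at 36153 and 32690.4 normalized reads in JNKi cells at 96 h and at 10345 and 10163 at 7 d, and in DMSO cells at 53693 and 55818 at 96 h and at 34913 and 30358 at 7 d. S100g stood at 25.3 and 19 in JNKi cells at 96 h and at 286 and 229 at 7 d, and in DMSO cells at 9.4 and 7.1 at 96 h and at 25.2 and 30.4 at 7 d. Csrp2 stood at 402 and 414 in JNKi cells at 96 h and at 396.5 and 374 at 7 d, and in DMSO cells at 389 and 503 at 96 h and at 944 and 1023 at 7 d. So Tnc was lower at 7 d than at 96 h in both groups, S100g was higher in both, and Csrp2 was higher at 7 d in DMSO cells alone by the order of its values. The 523 receptor genes of sensory tissue rose as well, from 4.02 and 4.21 RPM at 96 h to 15.8 and 14.4 in JNKi cells. In DMSO cells they rose from 2.71 and 2.61 RPM to 8.59 and 7.11. The part of this low-level rise in the change of S100g, or in the 7 d effects of low genes against earlier times, was not tested. These changes with time share libraries with the 7 d comparison and are given without a test.

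**Figure D4:**
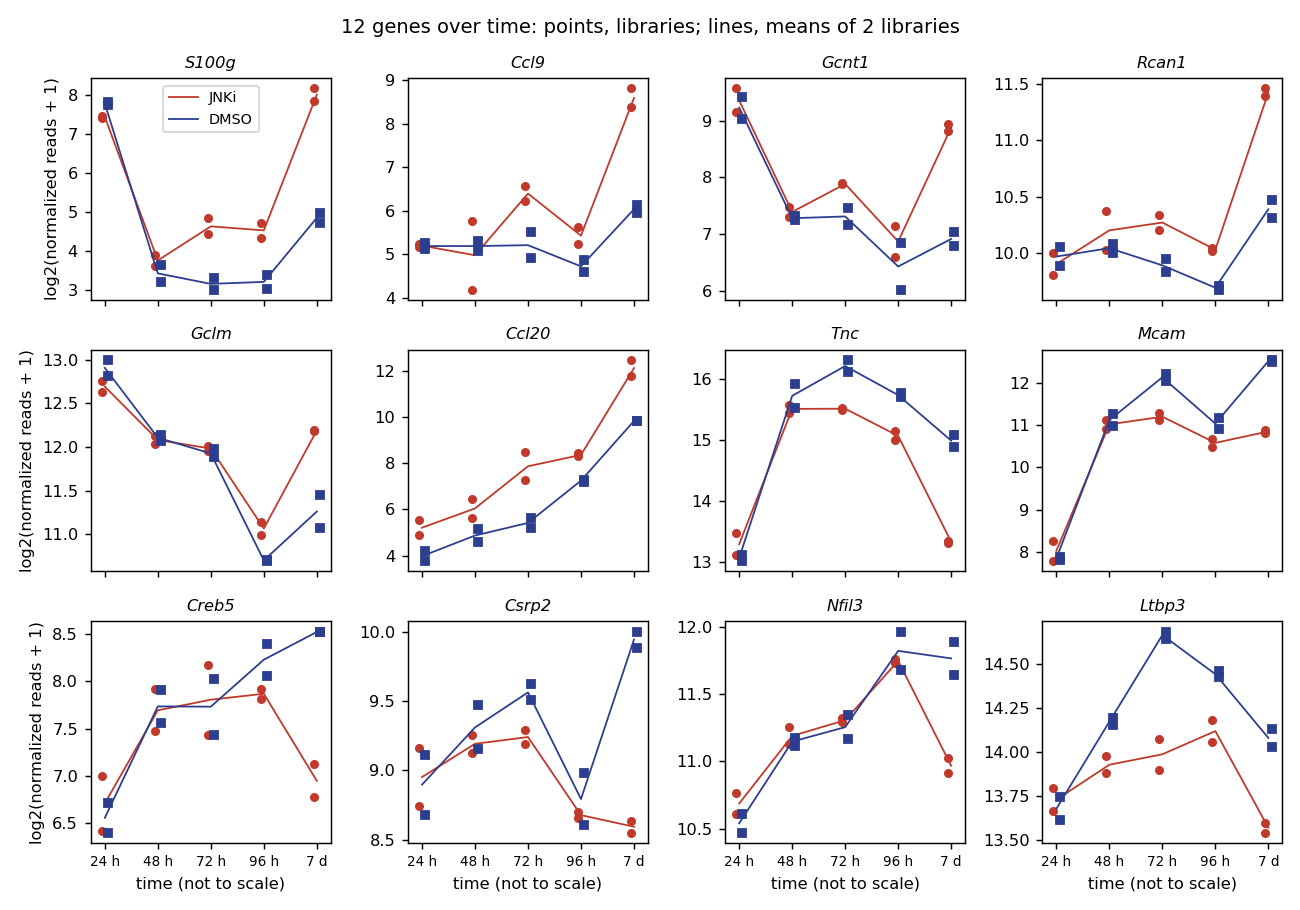
Level of 12 genes (log2 of normalized reads + 1, vertical axes) in each library at 24, 48, 72 and 96 h and 7 d, with JNKi as circles and DMSO as squares and lines through the means of 2 libraries. The 2 groups do not overlap at 7 d in any of the 12 panels, which holds for every called gene. S100g has a 7 d difference of 3.16 and Tnc of -1.67.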

How the data were processed

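RNA of 20 inhibitor experiment libraries was analysed, 4 of them at 7 d; the 15 samples of the TGF-β time course were not used here. The values are a signal per gene, normalized read counts as deposited by the authors, whose steps match gene read counts divided by 1 factor per library; per the submitters' processing notes the tools were TopHat, HTSeq and DESeq with build mm9, with no version stated. Whole reads were recovered from the steps between values (99.97% to 100% of a library's values lay within 0.1 reads of a whole number) and gave the depths.

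The 13896 genes whose mean reached 10 in 1 or more of 10 groups were fitted with limma 3.58.1 in R 4.3.3 on log2(value + 1), with a mean per group and an intensity trend. The Benjamini-Hochberg adjustment ran over all genes fitted. On the recovered reads, edgeR 4.0.16 called 780 genes higher and 808 lower, and DESeq2 1.42.0 called 715 and 866.

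Members and lists were chosen with earlier results of these data known. From genes whose mean reached 50, past the test, not overlapping and outside the EMT markers, the rule named the 15 largest changes each way, the 6 highest means each way with a log2 difference of at least 1, the 8 largest changes each way against earlier times, up to 4 genes per list, and a few fixed genes. Other genes in the text are list members named after their values were seen. A few genes that the rule names are not reported here.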

Additional observations from a re-analysis of the deposited data

Results flagged for a closer look

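The 7 d difference between JNKi and DMSO was set against the mean of the 4 earlier differences for every gene, and a result is listed here where limma's test of that change was past an adjusted p of 0.05. Of the 13755 genes counted, 230 had a more positive and 234 a more negative effect at 7 d. Among the genes named in the text 81 passed, 36 in the positive and 45 in the negative direction. Leaving out 1 library of 7 d ended the call for 52 of them without JNKi replicate 1, for 45 without JNKi replicate 2, for 50 without DMSO replicate 1 and for 14 without DMSO replicate 2, and 26 passed in each of these fits. The values below are log2 differences, 7 d minus the earlier mean.

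These genes were more positive and passed with each 7 d library left out. S100g (2.46), Gm10768 (1.98), Gcnt1 (1.65) and Abcc2 (1.48) had a more positive effect at 7 d. Tns4 (1.32), Col11a2 (1.23), Alcam (1.19) and Olr1 (1.15) differed upward from their earlier effects. Slco4a1 (0.99), Gclc (0.95), Gclm (0.88) and Rcan1 (0.83) were more positive at 7 d than before. Fth1 (0.66) moved up against the earlier times.

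The following were more negative and passed with each 7 d library left out. Gpbar1 (-1.91), Tagln (-1.50), Mcam (-1.34) and Slc41a3 (-1.33) had a more negative effect at 7 d. Tnc (-1.33), Csrp2 (-1.22), H1f0 (-1.21) and Ptprk (-0.88) differed downward from their earlier effects. Nfil3 (-0.84), Tgm2 (-0.74), Zyx (-0.66) and Hspg2 (-0.66) were more negative at 7 d than before. Pdlim7 (-0.57) moved down against the earlier times.

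A further set was more positive but did not pass in at least 1 of those fits. Mmp3 (3.15), Ccl9 (2.13), S100a8 (2.03) and Snx20 (1.92) had a more positive effect at 7 d. Fxyd2 (1.82), Chadl (1.73), Serpina1b (1.69) and Apob (1.67) differed upward from their earlier effects. Pdcd1lg2 (1.60), Bcl2l15 (1.34), Hspa1b (1.20) and Mmp13 (1.14) were more positive at 7 d than before. Sprr2h (1.12), Psrc1 (1.08), 5730469M10Rik (0.96) and Gtse1 (0.95) moved up against the earlier times. Aurkb (0.69), Hmox1 (0.66), Sprr1b (0.61) and Ccnd1 (0.56) had a more positive effect at 7 d. Cgn (0.52), Lpin1 (0.51) and Map3k11 (0.41) differed upward from their earlier effects.

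The last set was more negative and likewise did not pass in at least 1 of those fits. Creb5 (-1.53), Gm6484 (-1.31), Lrrc32 (-1.30) and Pde8a (-1.11) had a more negative effect at 7 d. Cdsn (-1.04), Hoxb9 (-1.02), Fstl3 (-0.99) and Atp2b4 (-0.98) differed downward from their earlier effects. Fn1 (-0.95), Ctgf (-0.89), Ccbe1 (-0.79) and Csrp1 (-0.76) were more negative at 7 d than before. Ltbp4 (-0.72), Fhl2 (-0.71), Sdc3 (-0.71) and Col5a1 (-0.65) moved down against the earlier times. Krt18 (-0.64), Tpm1 (-0.60), Unc5b (-0.60) and Plin2 (-0.58) had a more negative effect at 7 d. Srf (-0.57), Col4a1 (-0.55), Itgb1 (-0.53) and Mfge8 (-0.53) differed downward from their earlier effects. Fam38a (-0.52), Zeb1 (-0.51), Pcolce (-0.51) and Cdh2 (-0.47) were more negative at 7 d than before. Kremen1 (-0.46), Tpm4 (-0.45), Plod1 (-0.44) and Psap (-0.42) moved down against the earlier times.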

How the results depend on the processing

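No gene named by the rule and past the test changed sign under any alternative tried, but the balance of calls turned to more higher than lower under some settings. The main counts were 670 higher and 741 lower at 7 d, and 230 more positive and 234 more negative effects against the earlier times. With a pseudocount of 8 there were 1138 higher and 466 more positive, and with no filter on low values 1117 and 534; the cause was not tested. Without the intensity trend 142 and 114 genes had more positive and more negative effects, and with DESeq2 399 and 442. Asking for a log2 change of at least 1 left, by construction, 174 higher, 43 lower, 42 more positive and 23 more negative. Leaving out 1 library of 7 d gave 146 to 724 higher, 211 to 789 lower, 32 to 439 more positive and 35 to 413 more negative; the lowest counts came without JNKi replicate 1 or DMSO replicate 1, and these fits have fewer samples. The share of higher calls was 47.5%, against 59.6% with upper quartile rescaling (869 higher, 589 lower, 1259 genes shared), 58.2% with no filter (801 lower), 56.1% with a pseudocount of 8 (892 lower) and 908 higher to 756 lower with the 4 libraries of 7 d fitted alone; the median log2 difference of all genes was 0.06 with upper quartile rescaling and 0.02 as reported.

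Same-numbered replicates deviated together at 24 to 96 h (correlations of 0.73, 0.59, 0.72 and 0.53 over 9605 genes) but not at 7 d (0.07). The main fit has no replicate block, so the numbers were not taken to pair samples at any time. The shared deviation at 24 to 96 h thus stays in the spread that every test of that fit uses. With a replicate block 363 and 352 genes had more positive and more negative effects. With a replicate block within each time there were 1664 higher, 1850 lower, 1163 more positive and 1245 more negative. Of the 135 genes named by the rule and past the test, 60 passed with each library left out, and those 60 passed in the 14 other settings fitted. The counts per gene list with a library left out, the same fits for single genes against earlier times, and the counts at 24 to 96 h under other fits, were added after seeing the data. JNKi replicate 1 has the fewest reads, so it limits the precision of low genes most. For the single genes named, 272 values under an alternative kept their direction but were no longer past the test, and 56 came to pass it.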

Other observations

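Gene families outside the lists were counted after the values had been seen, and these counts support nothing beyond themselves. Over all genes counted 4.87% were higher and 5.39% lower. Of 10 aldo-keto reductase genes 4 were higher and none lower, and of 6 carboxylesterase genes 2 were higher, with a median log2 difference of 1.59. Apolipoprotein genes had 3 higher and none lower of 10. LIM-domain genes, several of them in the contractile list, had 1 higher and 12 lower of 33. Clustered protocadherin genes had 0 higher and 4 lower of 15, and their shared exons make counts of single members uncertain. Solute carrier genes, the widest family, split into 22 higher and 15 lower of 258.

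Single genes outside the naming rule were also read after their values had been seen, and each of the following passed with each 7 d library left out in turn. Apob, the structural protein of very-low-density lipoprotein, had 807 and 849.7 normalized reads with JNKi, against 276 and 236 with DMSO (log2 difference 1.69, limma adjusted p = 0.00209). Alcam, an adhesion molecule, had 835 and 933 normalized reads with JNKi, against 358.5 and 387 with DMSO (log2 difference 1.24, limma adjusted p = 4.38e-05). Tns4, a focal adhesion protein, had 951 and 1155 normalized reads with JNKi, against 308 and 500.2 with DMSO (log2 difference 1.41, limma adjusted p = 0.000232). Like every gene called higher, all 3 were above both DMSO values in both JNKi libraries. Olr1, a receptor for oxidised lipoprotein, had 1985 and 1965 normalized reads with JNKi, against 826 and 768.5 with DMSO (log2 difference 1.31, limma adjusted p = 6.18e-05). Nod2, an intracellular sensor of bacterial peptidoglycan, had 97 and 111 normalized reads with JNKi, against 21.9 and 31.8 with DMSO (log2 difference 1.93, limma adjusted p = 0.00149). Pdcd1lg2, a ligand of the receptor PD-1, had 211 and 260.4 normalized reads with JNKi, against 45.4 and 64.2 with DMSO (log2 difference 2.10, limma adjusted p = 0.000192). These 3 genes of innate sensing and immune signalling were likewise above DMSO in both JNKi libraries. Nod2 and Pdcd1lg2 have few reads and lie in the range of levels with a positive median. Col11a2, a cartilage collagen chain, had 538 and 617 normalized reads with JNKi, against 210.4 and 231 with DMSO (log2 difference 1.38, limma adjusted p = 0.00029). Ccbe1, a secreted factor of lymphatic growth, had 1539 and 1629 normalized reads with JNKi, against 3508 and 2909.7 with DMSO (log2 difference -1.01, limma adjusted p = 0.000231). Col11a2 was the higher and Ccbe1 the lower of these last genes.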
